A study of Mus musculus with 12 samples.

Results

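Antiviral interferon-stimulated genes are genes that cells switch on when interferon binds its receptors. The 39 genes described here were listed by name as known type I interferon targets. No threshold on measured values was used, but earlier results of these data were known when the list was made. All 39 were found among the 28548 lines of the deposited table of gene counts, and all 39 were among the 21203 genes tested. Their levels were compared in mouse cornea, the clear front tissue of the eye, across 4 groups of wild-type (WT) mice. The control group was left untreated. The DED model group had dry eye disease (DED), a disorder of the tear film and ocular surface. The eye drop group had DED and received stem cell-derived exosomes, small membrane vesicles released by cells, as drops on the eye, and the intravenous group had DED and received the exosomes into a vein. The labels give no strain, sex, age or sampling time, and they do not say how DED was induced. The deposited table is named with a time in hours that they do not explain. They list no exosome-free drop or injection, so exosomes and the procedure that delivered them cannot be told apart. The titles number the samples of a group, and in the DED groups they speak of a numbered mouse, but they do not say how many mice gave each sample. P-values measure the spread between these samples, part of which may be technical.

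Type I interferons bind a receptor whose kinases, JAK1 and TYK2, phosphorylate STAT2 and related transcription factors. With IRF9 these form a complex that binds a DNA element called the ISRE in the promoters of interferon-stimulated genes, while interferon gamma acts mainly through another element, the GAS. The products sense viral nucleic acid, block viral replication and feed back on the pathway, and in the corneal epithelium the response is part of the defence against herpes simplex virus.

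The 11 independent libraries held 8956553 to 14263045 counts, with 3 control, 3 DED model, 2 eye drop and 3 intravenous libraries. The third eye drop column equalled the mean of the first and second on all 28548 lines and was left out. The intravenous libraries were the shallowest, at 8956553 to 9501661 counts. Every library had the defining marker of corneal epithelium, Krt12, at 264102 to 514421 normalized counts, where a normalized count is a count divided by the size factor of its library. Summed markers of lens were highest in eye drop 2, of retina in DED model 3 and of skeletal muscle in intravenous 1. Muscle markers were also high in intravenous 2. Acta1 was at 640.4, 515.4 and 4.3 in intravenous 1, 2 and 3, and Ckm at 741.5, 438.4 and 11.6. Outside that group they were at most 116.1 and 63.7. The fit below without the library highest in each of these marker lists keeps intravenous 2. Markers of conjunctival epithelium, the neighbouring surface, summed to 103932 to 128650 in the intravenous libraries and to 59928 to 84576 in the other 8, with 3 of 7 tested genes higher in the intravenous group than in the DED model and 4 of 7 higher than in controls by the test described below. The goblet cell marker Muc5ac was at 0 in 8 of the 11 libraries. The part of these markers in the results below was not tested.

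A pair of libraries stood apart for the interferon-stimulated genes. Intravenous 3 was the highest of the 11 libraries for 36 of the 39 members, against 13.9% of all genes, and control 1 was the lowest for 26, against 22% of all genes. With each gene centred on its own mean, the median member sat at 1.92 on the log2 scale in intravenous 3, 0.82 in intravenous 2 and 0.24 in intravenous 1. In control 1 the median was -1.03, whereas control 2 and control 3 were at -0.09 and -0.06. The DED model libraries lay at -0.66, -0.73 and -0.41, all below those 2 controls, and the eye drop libraries at -0.08 and 0.21.

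**Figure D1:**
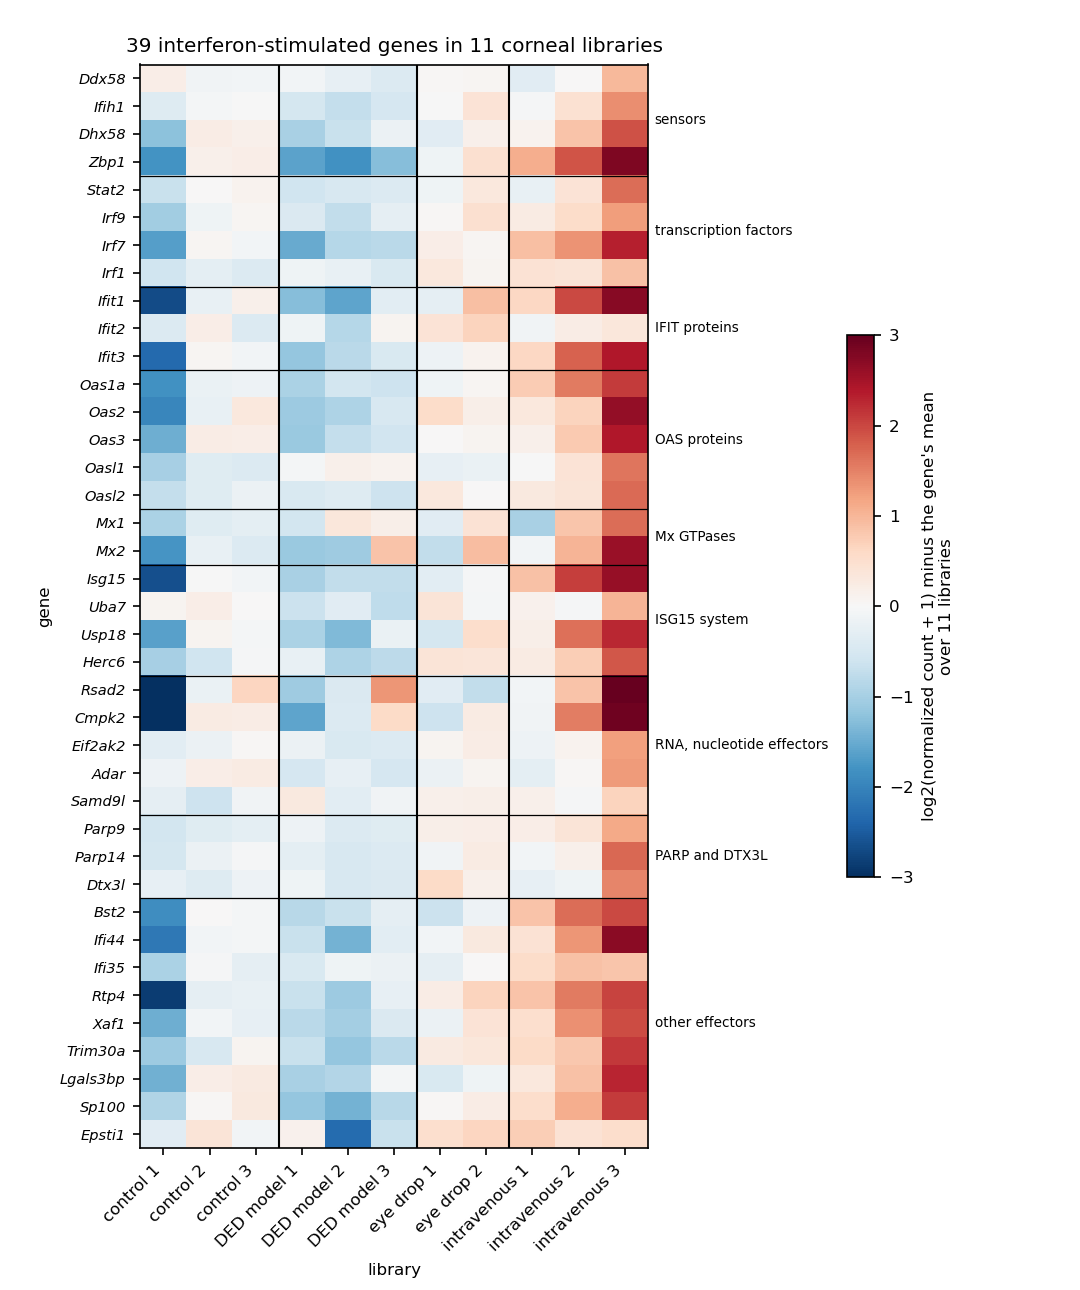
Levels of the 39 interferon-stimulated genes (rows, grouped by role) in the 11 libraries (columns, grouped by treatment), as log2(normalized count + 1) minus the gene's mean over the libraries, with red above and blue below that mean. Intravenous 3 is the most red column and control 1 the most blue, with medians of 1.92 and -1.03.

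Promoter sequences were searched for the cores of elements through which interferon-stimulated genes are known to be controlled. RefSeq promoter windows of the build GRCm38.p6, from 250 bases before to 50 bases after a gene's start, were matched for 30 of the 39 members. The ISRE core GAAANNGAAA, searched on both strands, was in a window of 12 of these 30 genes (40%) and of 3.99% of the 27025 genes in the RefSeq table. The GAS core TTCNNNGAA, which reads alike on both strands, was in 7 of the 30 (23.3%) and in 9.55% of all genes. Matches can overlap, and a match is a description of letters and not of a bound site. Only exact letters within the windows were counted, so variant, differently spaced or more distant elements were not. The 5 windows printed below are examples, and Isg15 and Ifit3 passed no comparison of groups in the main test described below. Of members that rose in it, Ifih1, Oas1a, Trim30a and Bst2 had an ISRE core in a window. Irf9, Irf7, Irf1, Oasl1, Oasl2, Herc6, Ifi35, Xaf1 and Sp100 rose and had no exact match to this core. The printed windows show the ISRE core in clusters (Isg15, Ifit3, Oas1a), once near the start (Trim30a), and a GAS core without an ISRE core (Irf1). Each is written 5′ to 3′ along the gene's strand, with bases of ISRE and GAS core matches in capitals. The Isg15 window is chr4:156200769-156201068 on the minus strand, with 3 overlapping ISRE cores that begin 78, 72 and 66 bases before the start. That of Ifit3 is chr19:34583279-34583578 on the plus strand, with ISRE cores at 156 and 122 bases before the start. The Oas1a window, chr5:120907476-120907775 on the minus strand, has overlapping ISRE cores at 20 and 14 bases and a GAS core at 98 bases before the start. Trim30a has a window at chr7:104465144-104465443 on the minus strand with an ISRE core 36 bases before the start. The Irf1 window at chr11:53769764-53770063 on the plus strand has a GAS core 90 bases before the start.
Isg15: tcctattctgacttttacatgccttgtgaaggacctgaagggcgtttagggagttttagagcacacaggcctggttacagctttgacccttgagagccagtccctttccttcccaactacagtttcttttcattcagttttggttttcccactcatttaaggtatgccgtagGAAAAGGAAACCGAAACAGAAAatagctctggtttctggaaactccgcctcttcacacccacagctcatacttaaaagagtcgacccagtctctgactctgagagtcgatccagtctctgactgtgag
Ifit3: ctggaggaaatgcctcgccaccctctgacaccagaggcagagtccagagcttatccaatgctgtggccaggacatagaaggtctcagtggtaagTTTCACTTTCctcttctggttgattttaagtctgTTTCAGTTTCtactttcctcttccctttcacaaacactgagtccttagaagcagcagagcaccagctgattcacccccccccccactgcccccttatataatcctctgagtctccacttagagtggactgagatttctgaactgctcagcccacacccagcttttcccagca
Oas1a: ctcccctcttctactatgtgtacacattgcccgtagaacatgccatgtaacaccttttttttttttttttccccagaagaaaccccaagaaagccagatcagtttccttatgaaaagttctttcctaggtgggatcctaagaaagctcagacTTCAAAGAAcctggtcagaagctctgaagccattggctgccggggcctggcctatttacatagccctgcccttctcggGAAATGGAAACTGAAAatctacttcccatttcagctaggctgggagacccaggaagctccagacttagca
Trim30a: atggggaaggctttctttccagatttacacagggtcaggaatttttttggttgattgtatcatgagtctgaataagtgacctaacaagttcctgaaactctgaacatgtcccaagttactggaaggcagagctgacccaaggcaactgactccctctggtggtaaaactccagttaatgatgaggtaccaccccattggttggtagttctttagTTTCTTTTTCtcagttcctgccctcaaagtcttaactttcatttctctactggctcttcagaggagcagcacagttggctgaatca
Irf1: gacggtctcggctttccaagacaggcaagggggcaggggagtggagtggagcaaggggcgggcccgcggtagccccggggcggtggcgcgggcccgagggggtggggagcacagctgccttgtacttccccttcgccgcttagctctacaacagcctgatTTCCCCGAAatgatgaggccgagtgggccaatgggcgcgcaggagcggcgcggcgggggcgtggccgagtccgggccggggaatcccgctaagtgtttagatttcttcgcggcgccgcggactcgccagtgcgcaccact

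Differences between groups were tested with limma, one model of 4 group means over all 21203 genes on log2(normalized count + 1), with Benjamini-Hochberg adjustment over all of them. A gene is said to rise or fall where its adjusted p was under 0.05. In bulk RNA, fewer cells of a type and less RNA per cell cannot be told apart. Comparisons against the DED model share the same 3 DED libraries, and comparisons against control the same 3 controls.

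After intravenous exosomes, 12 of the 39 members rose against the DED model (30.8%), where 1.45% of all genes were called in either direction. None fell, and all 39 estimates were above 0, as were 46% of all genes; without scaling between libraries, which moved the median of all genes to -0.58, 34 were. The median log2 fold change of the members was 1.56, against -0.04 for all genes, and single members ranged from 0.31 (Samd9l) to 3.50 (Zbp1). Log2 fold changes of at least 1 were found for 27 members, where 4.41% of all genes had one, and of at least 2 for 14. In 29 members (74.4%) every intravenous library was above every DED library, against 8.12% of all genes. An unadjusted p under 0.05 was found for 31 members (79.5%) and 15.5% of all genes. The number of members that rose rested on single libraries: it was 0, 2 and 1 without DED model 1, 2 and 3, 3 without either eye drop library, 4 without intravenous 2 and 7 without control 3. Of all genes, 0.316%, 1.12%, 0.408%, 0.905% (eye drop 1), 0.886% (eye drop 2), 0.915% and 0.9% were called there, each below the 1.45% of the main fit. The number of members was also 4 by limma voom (1.11% of all genes) and 0 by limma without trend and robust estimation (0.307%). It was 4 without the 3 libraries highest in lens, retina and muscle markers (0.228%). Of the 11 fits that left out 1 library, a member's call was kept in 2 (Ifih1 and Parp9) to 10 (Sp100). The median stayed between 1.09 and 1.99 when any 1 library was left out, and the number that rose was at most 14. Without intravenous 3 alone the median was 1.09 with 38 of 39 estimates above 0, and 7.59% of all genes were called. Without control 1 and intravenous 3, a step added after the data were seen, 23 members rose with a median of 1.09, where 9.75% of all genes were called, and the 12 were among them. These libraries stood apart for the same 39 members. Counts without them, here and below, are therefore descriptions and give no separate support.

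The sensors of viral nucleic acid held the largest increase of the list against the DED model. Zbp1, a sensor of Z-form nucleic acid that can start inflammatory cell death, had 73.2, 284 and 292 normalized counts in the 3 controls, 82.6, 71.8 and 104 in the DED model, 234 and 357 with the eye drop and 545, 951 and 1785 with the intravenous route. Each intravenous library was above all others, and the drop libraries were above the DED libraries without overlap. It rose 11.3-fold against the DED model (log2 fold change 3.50, SE 0.59, adjusted p = 0.0294) and 5.31-fold against control (adjusted p = 0.0353), and without control 1 and intravenous 3 by 3.07 and 1.31 on the log2 scale. Ifih1, which encodes MDA5, a helicase that senses long double-stranded RNA, had 425, 528 and 545 in controls, 382, 334 and 391 in the DED model, 549 and 732 with the drop and 539, 759 and 1454 after injection. It rose 2.28-fold over the DED model (log2 1.19, SE 0.27, adjusted p = 0.0422), and intravenous 1 lay within the range of the controls. Ddx58, which encodes the RNA sensor RIG-I, had the highest mean count of the 4 and the smallest log2 fold change after injection. It had 847, 684 and 691 in controls, 690.2, 619.7 and 556 in the DED model, 751 and 762 with the drop and 575, 738 and 1432 after injection, so that intravenous 1 and 2 overlapped the other groups (log2 0.45 against the DED model, SE 0.25, adjusted p = 0.416). Dhx58, the regulator LGP2, ranged from 116 in control 1 through a median of 295 to 1042 in intravenous 3 (log2 1.56 against the DED model, adjusted p = 0.184).

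Among the transcription factors, 2 of 4 rose against the DED model and 3 of 4 against control. Irf7, the factor that amplifies interferon production, had 445, 1452 and 1332 normalized counts in controls, 489, 769 and 800.4 in the DED model, 1617 and 1457 with the drop and 2621, 3574 and 7005 after injection. The groups did not overlap in the treated series: injection was above drop, and drop above both untreated groups. It rose 6.01-fold against the DED model (log2 2.59, SE 0.49, adjusted p = 0.0422) and 4.24-fold against control (adjusted p = 0.0297). Irf1, which interferon gamma induces strongly, had 2287, 2818 and 2622 in controls, 3204, 2995 and 2526 in the DED model, 4337 and 3689 with the drop and 4726, 4539 and 6380.0 after injection. Both treated groups were above both untreated groups, and its standard error was the smallest of the 39. Irf1 rose 1.78-fold over the DED model (log2 0.83, SE 0.18, adjusted p = 0.0297) and 2.01-fold over control (adjusted p = 0.00493). The first call was kept in 4 and the second in 11 of the 11 fits that left out 1 library. Irf9, which gives the complex on the ISRE its DNA contact, had 395, 746 and 845 in controls, 600.0, 486 and 668 in the DED model, 825 and 1128 with the drop and 958, 1185 and 1918 after injection. Injected libraries exceeded all controls and DED libraries and overlapped the drop. It rose against control (log2 1.04, SE 0.29, adjusted p = 0.0356), and against the DED model its adjusted p was 0.0692. Stat2 ranged from 267 in control 1 to 1370.0 in intravenous 3 with a median of 391 (log2 1.13 against the DED model, adjusted p = 0.201).

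IFIT proteins bind viral RNA ends, and none of the 3 genes passed the threshold although Ifit1 and Ifit3 had some of the largest estimates. Ifit3 had 261, 1377 and 1251 normalized counts in controls, 586, 756 and 955 in the DED model, 1193 and 1410.0 with the drop and 2031, 4524 and 6982 after injection. Injected libraries were above all others, and control 1 was below all others. The log2 fold change was 2.41 against the DED model (SE 0.69, adjusted p = 0.152) and 2.38 against control (SE 0.69, adjusted p = 0.0657). Ifit1 spanned 144 in control 1 to 6253 in intravenous 3, around a median of 799 (log2 2.83 against the DED model, SE 0.88, adjusted p = 0.189). Ifit2 did not share the pattern: it ranged from 22.1 to 65.3, both eye drop libraries were above all 3 intravenous ones, and its log2 fold change after injection was 0.45 (adjusted p = 0.545). The counts of Ifit3 are uncertain, since its transcript is 97.8% identical to that of Ifit3b over 97.4% of its length, and Ifit3b ran alongside it from 212 in control 1 to 4326 in intravenous 3.

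The OAS family makes the short oligoadenylates that activate RNase L, and 2 of its 5 members here rose against the DED model. Oas1a had 115, 354 and 366 normalized counts in controls, 209.9, 277 and 265 in the DED model, 371 and 423 with the drop and 689, 1202 and 1737 after injection. Injection was above every other group, and the drop was above the DED model. It rose 4.52-fold against the DED model (log2 2.18, SE 0.45, adjusted p = 0.0477) and 4.57-fold against control (adjusted p = 0.0157). Oas1a shares 97.6% identity over 98.7% of its transcript with Oas1g, so its counts may hold those of the other gene. Oasl2, an OAS-like protein, had 1987, 2513 and 2857 in controls, 2372, 2490.0 and 2126 in the DED model, 4065 and 3301 with the drop and 3959, 4270.0 and 10540.0 after injection. Drop and injection overlapped, and both were above the untreated groups. It rose 2.42-fold over the DED model (log2 1.28, SE 0.29, adjusted p = 0.0477) and 2.32-fold over control (adjusted p = 0.0194). Oasl1, which in mice represses translation of Irf7 mRNA, took another course. It had 1109, 1712 and 1672 in controls, 2124, 2480.0 and 2398 in the DED model, 1860.0 and 1923 with the drop and 2211, 2964 and 6736 after injection. DED libraries were above all controls (log2 0.66, SE 0.32, adjusted p = 0.302) and above both drop libraries (log2 for drop against DED model -0.30). Oasl1 rose in the intravenous group against control (log2 1.26, SE 0.32, adjusted p = 0.0247) and not against the DED model (log2 0.60, adjusted p = 0.395). Oas2 and Oas3 ran from 136 and 151 in control 1 to 3329 and 2226 in intravenous 3, with medians of 603 and 443 (log2 2.03 and 1.92 against the DED model, adjusted p = 0.25 and 0.201).

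**Figure D2:**
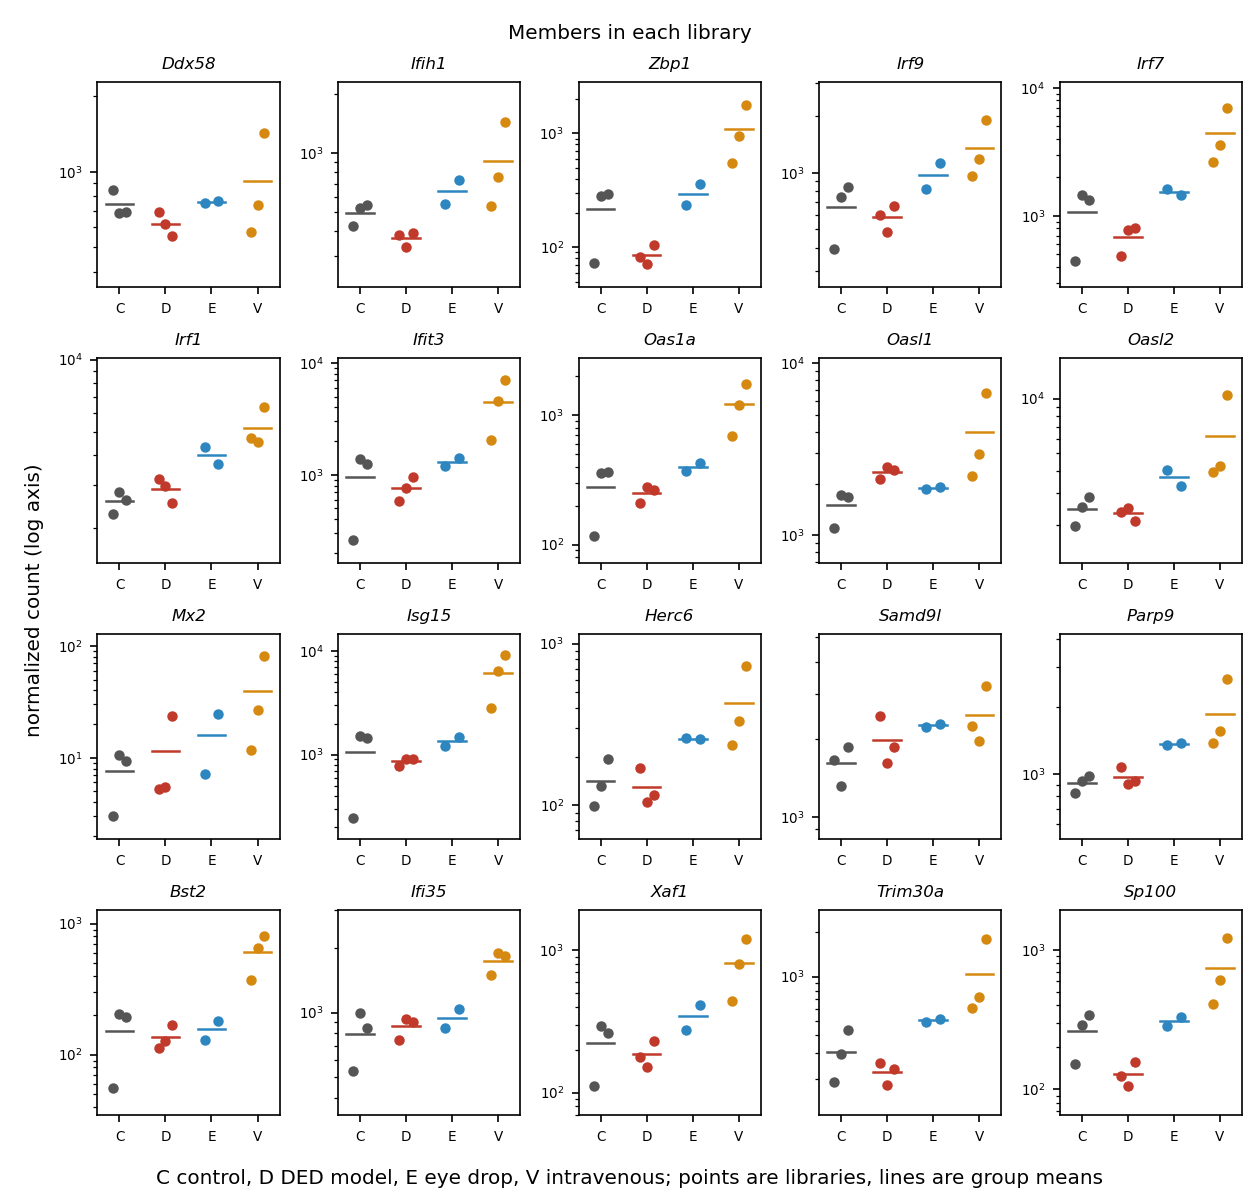
Normalized counts (log axes) of 20 members in each library, with C for control, D for the DED model, E for eye drop and V for intravenous. Points are libraries and lines are group means of normalized counts; Zbp1 runs from 71.8 in the DED model to 1785 in an intravenous library, while Samd9l stays between 1313 and 3215.

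Mx proteins are dynamin-like GTPases that trap viral nucleocapsids, and both genes were near the lower end of detection. Mx2, which had the higher mean count, had 3.0, 10.6 and 9.3 normalized counts in controls, 5.3, 5.5 and 23.6 in the DED model, 7.2 and 24.8 with the drop and 11.8, 26.6 and 80.9 after injection. Groups overlapped except for injection above control (log2 1.98, SE 0.73, adjusted p = 0.0889). Mx1 ranged from 6.6 to 46.3, and its lowest library was intravenous 1. Mx1 and Mx2 transcripts share stretches of 94.8% identity, so at 4 to 56 counts per library for Mx2 the split between them is uncertain.

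ISG15 is a ubiquitin-like protein that is attached to other proteins by the activating enzyme UBA7 and, in mice, the ligase HERC6, and removed by USP18, which also blocks the interferon receptor. Isg15 had 245, 1522 and 1444 normalized counts in controls, 774, 908 and 913 in the DED model, 1224 and 1483 with the drop and 2804, 6397 and 9304 after injection. Injected libraries were above all others and control 1 was far below the other controls. Its log2 fold change was 2.67 against the DED model (SE 0.73, adjusted p = 0.139) and 2.76 against control (SE 0.73, adjusted p = 0.0518), and without control 1 and intravenous 3 it rose by 2.30 (adjusted p = 0.00258) and 1.51 (adjusted p = 0.0124). Herc6 had 99.1, 132 and 193 in controls, 169.7, 105 and 115 in the DED model, 260.1 and 257 with the drop and 236, 330.5 and 723 after injection. Both treated groups were above both untreated groups. Herc6 rose 3.00-fold over the DED model (log2 1.59, SE 0.36, adjusted p = 0.0477) and 2.80-fold over control (adjusted p = 0.02). It shares 1269 exonic bases, 26.6% of its exon length, with Gm45193 on the same strand. The Isg15 transcript is 95.2% identical to that of AC151275.1 over 63.8% of its length. The counts of Herc6 and Isg15 may therefore be affected by these other genes. Uba7 ranged from 465 to 1610.0 with a median of 792, and its DED libraries, at 505, 623 and 465, were below all the others (log2 against control -0.68, SE 0.24, adjusted p = 0.158). Usp18 ranged from 69.5 in control 1 to 1042 in intravenous 3 (log2 2.19 against the DED model, adjusted p = 0.169).

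Effectors acting on RNA and nucleotides had the lowest median log2 fold change of the 9 role groups after injection, 0.75 against the DED model, and none of the 5 passed the threshold. Samd9l, a restriction factor that halts translation, had 1664, 1313 and 1868 normalized counts in controls, 2467, 1613 and 1858 in the DED model, 2238 and 2286 with the drop and 2243, 1966 and 3215 after injection. DED and treated libraries overlapped (log2 0.31 after injection against the DED model, SE 0.21, adjusted p = 0.519). Rsad2, which encodes viperin, an enzyme making a chain-terminating nucleotide, and Cmpk2, a mitochondrial nucleotide kinase, varied most between libraries of a group. Rsad2 ranged from 3.7 in control 1 through a median of 33.7 to 357 in intravenous 3, and Cmpk2 from 5.2 through 57.8 to 376 in the same libraries. Their log2 fold changes after injection, 1.37 and 1.92 against the DED model, had standard errors of 1.18 and 1.11. Eif2ak2, which encodes the translation-blocking kinase PKR, ranged from 312 to 999 (log2 0.74, adjusted p = 0.189), and Adar, which edits double-stranded RNA, from 432 to 1480.0 (log2 0.75, adjusted p = 0.26). Adar shares 1365 exonic bases with Chrnb2 on the opposite strand, and whether strand was used in counting is not given in the sources used here.

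PARP9 and the ubiquitin ligase DTX3L form a complex that enhances interferon signalling, and PARP14 is a related ADP-ribosyl transferase. Parp9 had 824, 938 and 980.5 normalized counts in controls, 1083, 902 and 933 in the DED model, 1346 and 1387 with the drop and 1378, 1556 and 2657 after injection. Both treated groups were above both untreated groups, and they overlapped each other. It rose 1.84-fold over the DED model (log2 0.88, SE 0.21, adjusted p = 0.0477) and 1.96-fold over control (adjusted p = 0.0106). Dtx3l, its partner, ranged from 759 to 2917, with the drop libraries at 1563 and 1181 and intravenous 1 and 2 at 896 and 958 (log2 0.71 for both routes against the DED model, adjusted p = 0.797 for the drop and 0.381 for injection). Dtx3l and Parp9 share 367 exonic bases on opposite strands. Parp14 ranged from 588 to 2778 with a median of 788 (log2 0.99 after injection, adjusted p = 0.227).

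Of the other 9 effectors, 4 rose against the DED model and 5 against control. Sp100, a nuclear body protein that represses incoming viral DNA, had the smallest p of the list against the DED model. It had 151, 289.7 and 344 normalized counts in controls, 125, 105 and 157 in the DED model, 287 and 331 with the drop and 409, 605 and 1220.0 after injection. Injection was above the drop and the drop above the DED model, without overlap. It rose 5.24-fold over the DED model (log2 2.39, SE 0.38, adjusted p = 0.0114) and 2.71-fold over control (adjusted p = 0.0325), calls kept in 10 and 9 of 11 fits without 1 library. Trim30a, a mouse protein that restrains Toll-like receptor signalling, had 190.1, 294 and 430.1 in controls, 256, 181 and 234 in the DED model, 491 and 516 with the drop and 613, 721 and 1794 after injection. Its order was the same, injection over drop over both untreated groups. Trim30a rose 4.17-fold over the DED model (log2 2.06, SE 0.38, adjusted p = 0.025) and 3.20-fold over control (adjusted p = 0.0195). It shares 90.1% identity over 45.6% of its transcript with Trim30d.

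Ifi35, a leucine zipper protein that modulates innate signalling, was nearly level across the injected libraries. It had 533, 991 and 849 normalized counts in controls, 746, 936 and 903 in the DED model, 845 and 1039 with the drop and 1496, 1891 and 1834 after injection. Injection was above all others, intravenous 3 was no higher than intravenous 2, and the drop overlapped both untreated groups. Ifi35 rose 2.02-fold over the DED model (log2 1.01, SE 0.21, adjusted p = 0.0243) and 2.26-fold over control (adjusted p = 0.00493), calls kept in 8 and 11 of 11 fits without 1 library. Xaf1, a pro-apoptotic antagonist of XIAP, had 112, 292 and 261 in controls, 177, 151 and 229 in the DED model, 274 and 414 with the drop and 437, 797 and 1204 after injection. Injected libraries were above all others. Xaf1 rose 4.07-fold over the DED model (log2 2.03, SE 0.42, adjusted p = 0.0427) and 3.65-fold over control (adjusted p = 0.0194). Bst2, or tetherin, which holds budding virions at the cell surface, had 55.5, 204 and 195 in controls, 113, 127 and 169 in the DED model, 129.6 and 182 with the drop and 370.1, 647 and 799 after injection. The drop overlapped both untreated groups, and injection was above all. Bst2 rose 4.39-fold over control (log2 2.13, SE 0.47, adjusted p = 0.0194), and its adjusted p against the DED model was 0.0623. Ifi44, Rtp4 and Lgals3bp each ran from a low in control 1 (29.6, 62.9 and 73.2) to a high in intravenous 3 (873, 1873 and 976) with log2 fold changes of 2.29, 2.14 and 1.80 against the DED model that did not pass. Epsti1, at 4.4 to 43.3, was highest in intravenous 1 and had the same estimate for both routes against the DED model (log2 1.52).

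Against untreated controls, 14 of the 39 members rose after injection (35.9%), where 11.3% of all genes were called. The median was 1.44, all 39 estimates were above 0, and 25 members (64.1%) had every injected library above every control, against 15.1% of all genes. An unadjusted p under 0.05 was found for 28 members (71.8%) and 28.7% of all genes. Those that rose in both comparisons were Zbp1, Irf7, Irf1, Oas1a, Oasl2, Herc6, Parp9, Ifi35, Xaf1, Trim30a and Sp100, and both comparisons use the same intravenous libraries. The count was 6 without control 1, 5 without intravenous 2 and 14 without control 1 and intravenous 3, where 1.2%, 5.3% and 16.4% of all genes were called, and 1 by limma without trend and robust estimation (1.75% of all genes). A member's call was kept in 4 (Zbp1) to 11 (Irf1 and Ifi35) of the 11 fits without 1 library. The median was 0.93 with 36 estimates above 0 without intravenous 3, 0.59 with 36 without control 1 and intravenous 3, and 0.77 with 31 without scaling. Over all 4 groups, 10 members differed by the F test (25.6%), where 4.51% of all genes did, and the count was 26 without control 1 and intravenous 3, where 13.5% of all genes did. Without control 3, DED model 1, 2 or 3, eye drop 1 or 2, or intravenous 2 it was 3, 4, 2, 3, 3, 3 and 1. The share of all genes in the F test of these fits was not computed.

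In the DED model itself no member was called against control, where 1.25% of all genes were. The median log2 fold change was -0.12 and 13 of 39 estimates were above 0, against 52.4% of all genes. An unadjusted p under 0.05 was found for 2 members, Uba7 and Sp100 (5.13%, against 17.4% of all genes), and voom and limma without trend and robust estimation called 0 as well. Ifih1, Uba7 and Adar had every DED library below every control, as had 12.5% of all genes. This comparison turned on control 1: without it the median was -0.56 and 5 estimates were above 0, whereas it was 0.00 without control 2 and 0.05 without control 3. Without intravenous 3, Oasl1 rose and Uba7 fell, 2 of 39 members (5.13%), where 5.77% of all genes were called. Without control 1 and intravenous 3, 7 members fell in the DED model (Zbp1, Irf7, Oas2, Oas3, Uba7, Adar and Sp100), where 2.03% of all genes were called. Of these, Zbp1 fell by 1.75 on the log2 scale (adjusted p = 0.00358) and Sp100 by 1.31 (adjusted p = 0.0049). Control 1 was the lowest library for 26 of the 39 members, and leaving it out raises their control mean by construction.

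The eye drop gave smaller differences in the same direction, none past the threshold. No member was called against the DED model, where 0.193% of all genes were, and voom and limma without trend and robust estimation also called 0. The estimate was above 0 for 37 of 39 members, against 47.4% of all genes, with a median of 0.67 and a range from -0.48 (Rsad2) to 1.75 (Zbp1). In 28 members (71.8%) both drop libraries were above all 3 DED libraries, against 13.8% of all genes. An unadjusted p under 0.05 was found for 10 members (25.6%), against 7.05% of all genes: Ifih1, Zbp1, Irf9, Irf1, Ifit2, Uba7, Herc6, Trim30a, Sp100 and Epsti1. The smallest adjusted p was 0.557. Without control 1 and intravenous 3, which left all 5 libraries of this comparison in place, 6 rose: Zbp1, Irf7, Oas2, Oasl2, Trim30a and Sp100, where 0.551% of all genes were called. Against control the drop had a median of 0.59 with 38 of 39 estimates above 0 and no call, where 0.00472% of all genes were called and 3 members had an unadjusted p under 0.05 (Irf1, Herc6 and Parp9). The median was 0.17 with 28 of 39 above 0 without control 1, and 0.39 with 35 without eye drop 2. Without intravenous 3, Irf1 rose there, 1 of 39 members (2.56%), where 1.77% of all genes were called, and limma voom and limma without trend and robust estimation called 0.

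**Figure D3:**
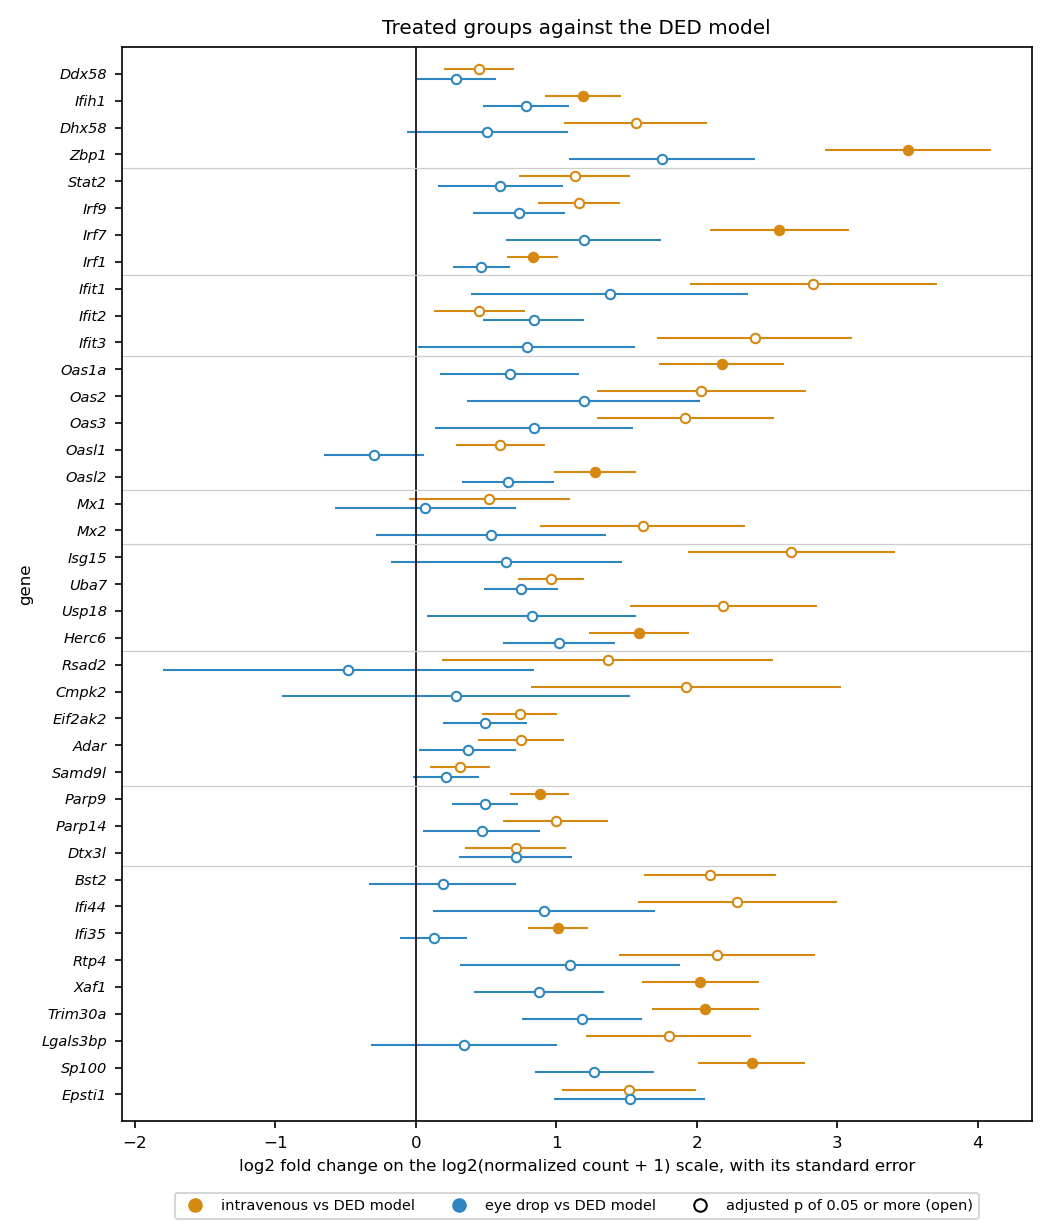
Log2 fold changes of the 39 members against the DED model (x axis, log2(normalized count + 1) scale, bars are standard errors) for the intravenous route (orange) and the eye drop (blue). Filled points have an adjusted p under 0.05, which 12 intravenous and 0 eye drop estimates have; all 39 intravenous estimates (34 without scaling between libraries) and 37 eye drop estimates are right of 0.

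Tested directly, the routes did not differ past the threshold for any member, and 0% of all genes were called. The median log2 difference, intravenous against drop, was 0.89 with 36 of 39 estimates above 0, against 48% of all genes. It was 0.40 with 30 above 0 without intravenous 3, and 0.20 with 22 above 0 without scaling between libraries. Limma voom and limma without trend and robust estimation called 0 members. In 17 members (43.6%) every injected library was above both drop libraries, against 12.4% of all genes, and in 1, Ifit2, every one was below. Unadjusted p under 0.05 was found for 9 members (23.1%, against 9.21% of all genes): Zbp1, Irf7, Oas1a, Oasl1, Isg15, Bst2, Ifi35, Xaf1 and Sp100. The smallest adjusted p was 0.351 (Ifi35, log2 0.89). Without control 1 and intravenous 3, 6 were higher after injection (Zbp1, Irf7, Oas1a, Isg15, Bst2 and Ifi35), where 4.8% of all genes were called.

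The libraries that stood apart did so for long and short members differently. Intravenous 3 was above the mean of intravenous 1 and 2 for 38 of 39 members, with a median log2 ratio of 1.25 (2.39-fold), and by a log2 ratio of at least 1 for 27, where 7.61% of 12876 expressed genes reached that. The ratio grew with exon length, with a Spearman rho of 0.41 over all genes and 0.37 over the 39 members. Its median was -0.36 among short genes and 0.31 among long ones, taken as the lower and upper tercile of exon length. Isg15, at 756 exonic bases, had a ratio of 2.02 and Parp14, at 7417, one of 3.21, while Rsad2 had the highest, 6.60. Control 2 and 3 together exceeded control 1 for 36 of 39 members, with a median log2 ratio of 1.01 (2.01-fold) and 20 members at 1 or more, against 3.56% of genes. Control 1 is the divisor of this ratio, and the rho with length was -0.41 over all genes and -0.53 over the members. Control 1, like intravenous 3, was thus relatively higher for longer genes than the other libraries of its group. Genes are not independent replicates, so these correlations describe single libraries and carry no p. The part of RNA quality or of length in the interferon-stimulated genes was not tested. Intravenous 2 also exceeded intravenous 1 by 2.28-fold for Isg15, 2.23-fold for Ifit3 and 1.08-fold for Oasl2.

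**Figure D4:**
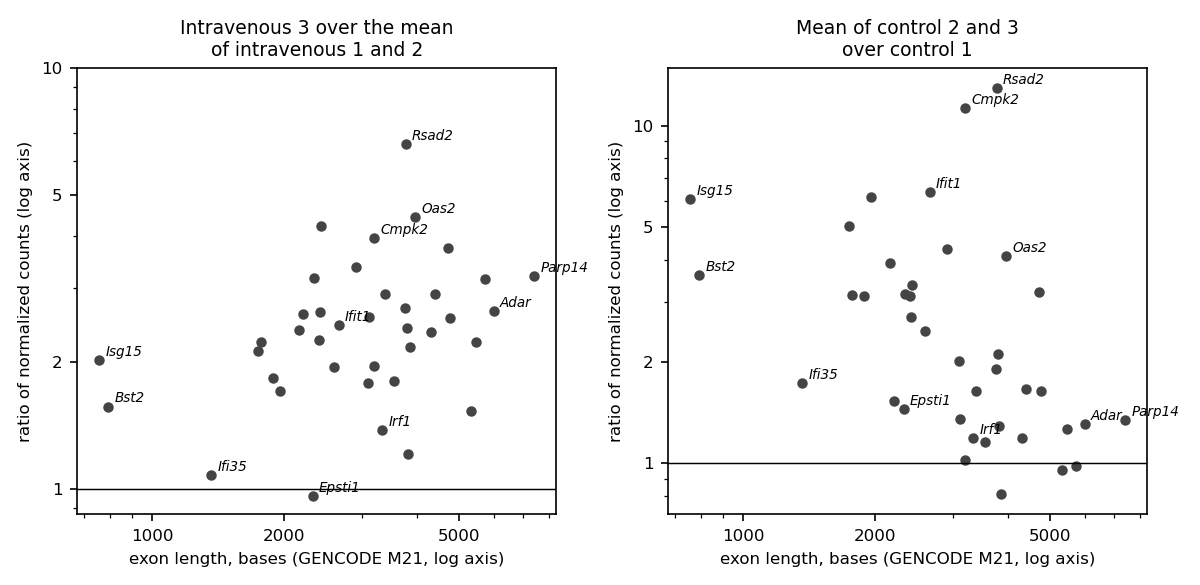
Ratio of normalized counts (log axis) for each of the 39 members against its exon length in bases (log axis), for intravenous 3 over the mean of intravenous 1 and 2 (left) and for the mean of control 2 and 3 over control 1 (right). Points are genes, and the horizontal line marks a ratio of 1. On the left 38 members lie above it, on the right 36.

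Per kilobase of exon, which allows levels to be compared between genes, Isg15 was the highest member in controls at 1420 normalized counts per kilobase, followed by Oasl2 (785), Irf1 (772), Oasl1 (679), Ifi35 (581) and Ifit3 (552). In the intravenous group Isg15 was at 8160 per kilobase, Ifit3 at 2590, Oasl2 at 2000 and Irf7 at 1840. Members at the low end in controls were Mx1 (2.80), Mx2 (3.15), Rsad2 (8.72) and Ifit2 (9.45). Neighbours among these named levels in controls differed by less than 1 SD of the more variable gene over the 3 control libraries, in which Isg15 ranged from 245 to 1522 normalized counts.

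Other genes of the pathway were read from lists of ligands, receptors, signalling factors and inhibitors. Of 14 interferon genes listed, 6 were in the table: Ifnb1, Ifna2, Ifnk, Ifne, Ifnz and Ifnl3. The others had no line used here under the names searched, so their levels are not known. The 6 ligands in the table were at the floor of detection, summing to 0 to 4.7 normalized counts per library, and none could be tested. Of the 9 receptor and kinase genes, none rose or fell against the DED model. Ifngr2, a subunit of the interferon gamma receptor, rose after injection against control, with 691 ± 39.5 normalized counts in controls and 1250 ± 188 after injection (SD over 3 libraries in each group, log2 0.85, SE 0.17, adjusted p = 0.00694). Tyk2 and Ifnar1, a subunit of the type I receptor, had estimates of -0.61 and -0.50 against control that did not pass. Of transcription factors outside the members, Stat3 and Irf3 had log2 fold changes of 0.10 and -0.07 after injection against the DED model, and neither passed.

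Of 15 genes that act in the induction of interferon, 3 fell after injection against control, where 4.68% of all genes fell, and none changed against the DED model. These were Cgas, which senses cytosolic DNA (log2 -1.01, SE 0.26, adjusted p = 0.0225), the kinase gene Ikbke (log2 -0.80, adjusted p = 0.0323) and the adaptor gene Traf3 (log2 -0.76, adjusted p = 0.0248). Among 8 negative regulators none passed, and Socs1, an inhibitor of JAK kinases, was nearest, with 24.4 ± 6.69 normalized counts in the DED model and 64.4 ± 13.1 after injection (SD, n = 3 each, log2 1.39, SE 0.34, adjusted p = 0.0522). Cish and Samhd1 had estimates of 0.49 and 0.30. Markers of leukocytes in general summed to 316.4 to 431.9 normalized counts in the 8 libraries outside the intravenous group and to 395.0 to 620.1 in it, highest in intravenous 3, and 0 of 7 were called. Cd52 made up most of this sum in every library, at 286.1, 351.6 and 563.7 in intravenous 1, 2 and 3. Each other marker of this list was at most 45.9 in any library. Of these others, only Cd48 (8.7) was higher in intravenous 3 than in both other injected libraries. The summed level of 9 macrophage markers was 966.4 to 1113 normalized counts across controls, 1138 to 1599 across DED model libraries, 1387 to 1660 in the eye drop pair and 1315 to 1646 in the injected group, and 0 of 9 were called. Among these 9, Itgam was the largest in every library, at 526.5 to 1260 normalized counts. C1qa was at 137, 109 and 49.1 in intravenous 1, 2 and 3 and at 27.1 to 55.8 in controls. Those of plasmacytoid dendritic cells, a main source of type I interferon, were near 0 for Siglech (at most 2.9), Clec4b1 (at most 1.0) and Klk1 (at most 1.1), while Ccr9 was at 19.7 to 49.8 in every library. Cox6a2 (358, 136 and 1.4 in the injected libraries) is also a muscle gene. Neutrophil markers summed to at most 8.1 and those of T and NK cells to at most 10.5. Their part in the rise of the interferon-stimulated genes was not tested.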

How the data were processed

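RNA of 12 corneal samples in 4 labelled groups was sequenced, with NEBNext Ultra libraries from total RNA per the labels' protocols. The authors deposited 1 table of log2 values, with no aligner, counter or annotation given in the sources used here and the build mm9 per the submitters' processing notes. Within 0.01, 99.9748% of the deposited log2 values were log2 of a whole count plus 1, but 26.9721% in the third eye drop column, which was left out. Counts were recovered by rounding, and 19 lines with averaged or date names were left out (at most 0.0495% of a library's counts).

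Counts were divided by median-of-ratios size factors, and a gene was kept where 3 or more libraries reached a normalized count of 1. The model, with a pseudocount of 1, used limma 3.58.1 (R 4.3.3), trend and robust estimation on, with 7 residual degrees of freedom, a median prior of 9.59, two-sided tests and a threshold of 0.05. It was tested on simulated data. Alternatives were other scalings, pseudocounts and filters, limma voom, a replicate block, only the 2 groups compared, and leaving out libraries. Exon lengths, overlaps and similar transcripts came from GENCODE M21 on GRCm38, not the authors' build, so no gene coordinates are given beyond the promoter windows. Similar transcripts were those with a match of at least 90% identity. Counting intervals would cover counting error only, since reads carry no molecular identifiers.

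Values in every library are given for members past the threshold in any comparison (if more than 16, the 16 with the smallest F test p) and for the member of each role group with the highest mean level. Other members are given by range. Of other pathway lists, genes past the threshold and the 3 with the smallest p are named. The members, lists, rule and tests were chosen with earlier results of these data known. A pathway gene within this rule is not reported here.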

Additional observations from a re-analysis of the deposited data

How the results depend on the processing

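No called result changed sign. Of 5850 single-member values under the alternatives, 5547 kept their side of the threshold, 162 of them with the other sign and no call, 193 lost and 110 gained a call. The median for the DED model against control, -0.12, turned to 0.05 without control 3. The 12 members that rose after injection against the DED model became 7 on the values as deposited and 0 by limma without trend and robust estimation. They became 4 by voom and 4 without the 3 libraries highest in lens, retina and muscle markers. Of all genes, 16.2%, 0.307%, 1.11% and 0.228% were called there. The 14 against control became 8, 1, 15 and 9 under the same settings, where 28.3%, 1.75%, 10% and 0.933% of all genes were called. With only the 2 groups they became 5, where 6.6% of all genes were called. On the values as deposited, the 7 of 39 was near the share of all genes and the 8 of 39 was below it. The 10 of the F test became 0 without trend and robust estimation, 6 by voom and 2 without those 3 libraries, with shares of all genes not computed. With only the 2 groups, 1 member fell in the DED model against control (2.56%, where 3.39% of all genes were called) and 2 rose with the drop against the DED model (0.19% of all genes). Leaving out 1 library gave 0 to 14 for injection against the DED model and 5 to 17 against control. Of all genes, 0.316% to 7.59% and 1.2% to 22.9% were called there, each share highest without intravenous 3. The F test gave 1 to 12, with shares of all genes not computed. The DED model against control gave 0 to 2 and the drop against control 0 to 1. Of all genes, 0.244% to 5.77% and 0% to 1.77% were called there. The median for the drop against the DED model ran from 0.57 to 0.782. Without control 1 and intravenous 3, which stood apart for these same members, the counts were 7 for the DED model against control and 6 for the drop against the DED model. They were 23 for injection against the DED model, 6 for injection against the drop and 26 for the F test. The causes of these moves were not tested. Scaling moved the median of all genes after injection against the DED model from -0.04 to -0.25 with library totals and -0.58 as deposited, and then 39 and 34 of the 39 members were above 0. Samples share replicate numbers across groups. Over all genes tested, same-numbered libraries did not deviate together (correlations of -0.15 to 0.241, over 0.1 in 1 of 15 pairs, and in 6 of 30 other pairs). These correlations were not taken over the members alone. In order of number, the centred member medians were -1.03, -0.09 and -0.06 in controls and -0.66, -0.73 and -0.41 in the DED model. They were -0.08 and 0.21 with the drop and 0.24, 0.82 and 1.92 after injection. The last-numbered library was thus the highest in every group, and whether the numbers mark a pairing or batch was not tested. With the number as a replicate block the counts were 24 for injection against the DED model (1.69% of all genes) and 28 against control (11.6%). They were 24 for the F test (share not computed) and 1 for the drop against the DED model (0.123%), whose member median was 0.897. The lowest counts of a member were 4 to 7 (Mx1, Mx2, Rsad2, Cmpk2, Epsti1), where depth limits precision.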
